A study of Homo sapiens with 60 samples.

Results

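Soshiho-tang is a decoction of several herbs used in East Asian medicine, among them Bupleurum, Scutellaria, Pinellia, ginseng, jujube, licorice and ginger. Its hot water extract was given for 24 h to HepG2, a human hepatocellular carcinoma cell line. The comparison described here is the medium dose of 100 µg/mL, with 2 libraries, against the low dose of 20 µg/mL, with 2 libraries, and 3 vehicle libraries give the level in cells that received no extract. These are 7 of the 60 libraries of the series, chosen by their labelled treatment and dose and by no measured value. The 2 soshiho libraries at the high dose of 500 µg/mL and the 3 libraries each of another decoction, the water extract of Yijin-tang, at 100 and 20 µg/mL served for comparison. The vehicle label gives 0.1% DMSO for 24 h, while the text of the series names 2% DMSO for the vehicle, and that text also states that samples with too little RNA were left out. The soshiho libraries carry the replicate numbers 2 and 3. HepG2 is a single tumour line, and the labels do not say whether replicates were separate cultures, and the p-values therefore rest on a spread between libraries that may be technical.

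The 7 libraries held 23.5 to 30.2 M expected counts each, and the shallowest library of the series held 20.7 M. Vehicle replicate 1 stood apart: the chi-square of its counts against those of the other vehicle libraries, divided by the degrees of freedom, was 17.9 and 17.3, while it was 2.84 for vehicle replicates 2 and 3, 2.7 between the low-dose libraries and 2.87 between the medium-dose libraries. Counts against vehicle, and statements on the vehicle range that change without it, are therefore given both ways. The sample codes of vehicle differ from the code set that soshiho and yijin share, so the code and the presence of an extract cannot be told apart. A DMSO content is labelled for vehicle and none is for the soshiho and yijin libraries, so the solvent may differ there too. Medium against low dose lies within 1 code. Hepatocyte and HepG2 markers were high in all 7 libraries (10 markers, summed to 49820 to 54450 in vehicle in CPM, counts scaled to the library size, 46510 to 47920 at 20 µg/mL and 44880 to 45860 at 100 µg/mL). Among markers of other cell types, PTPRC, CD3E and MS4A1 of leukocytes, KDR and TEK of endothelium and COL1A2 and DCN of fibroblasts had 0 counts in every one of the 3 groups. Summed markers of fibroblasts, mostly PDGFRB, were at 13.4 to 14.5, 10.1 to 11.8 and 7.79 to 8.23 CPM in vehicle, low and medium dose, and those of leukocytes, mostly LYZ, at 1017 to 1076, 1150 to 1189 and 1101 to 1110 CPM. Endothelial markers were at 5.44 to 6.39 CPM over the 7 libraries and bile duct markers at 536 to 605 CPM. Their part in the results was not tested.

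A pair of chemical sensing systems in liver cells is the background to the genes below. The aryl hydrocarbon receptor, AhR, is a transcription factor that binds flat aromatic ligands, enters the nucleus, pairs with ARNT and binds DNA around the core GCGTG. CYP1A1, a monooxygenase that oxidises aromatic compounds, is its classic target, and AHRR, a repressor of the receptor, is another. NRF2 is a transcription factor held down by KEAP1 until electrophiles or oxidants modify KEAP1; it then pairs with small MAF proteins at antioxidant response elements and raises enzymes of glutathione and thioredoxin metabolism, quinone reduction and export.

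Few genes separated the doses. Of 16924 genes tested with edgeR's quasi-likelihood test, 20 (0.118%) passed an adjusted p of 0.05 between 100 and 20 µg/mL, 19 higher and 1 lower. CYP1A1 was about 5-fold higher at the medium dose. Of the other 18 that rose, 9 are targets of NRF2, and SOS1, MRAS, CPLX2, TSKU and NEDD9 were among the rest. The rises were small: 17 of the 19 were under 1.5-fold, the lowest was 1.165-fold (FAM171A1), and the median log2 change of the 19 was 0.38. The median over all genes tested was 0.00 on the log2 scale and 49.1% of genes had a positive change. At an unadjusted p of 0.05, 955 genes (5.64%) differed, 466 of them higher. In each of the 19, which were called on these same libraries, both medium libraries were above both low libraries. Fitting only the 4 medium and low libraries called 274 genes, all 20 among them, and leaving out any 1 of the 4 libraries left 7 to 9 calls. AKR1B10, CPLX2, CYP1A1, MRAS, SOS1 and SRXN1 were called under each of the 13 alternatives that were run for single genes.

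**Figure D1:**
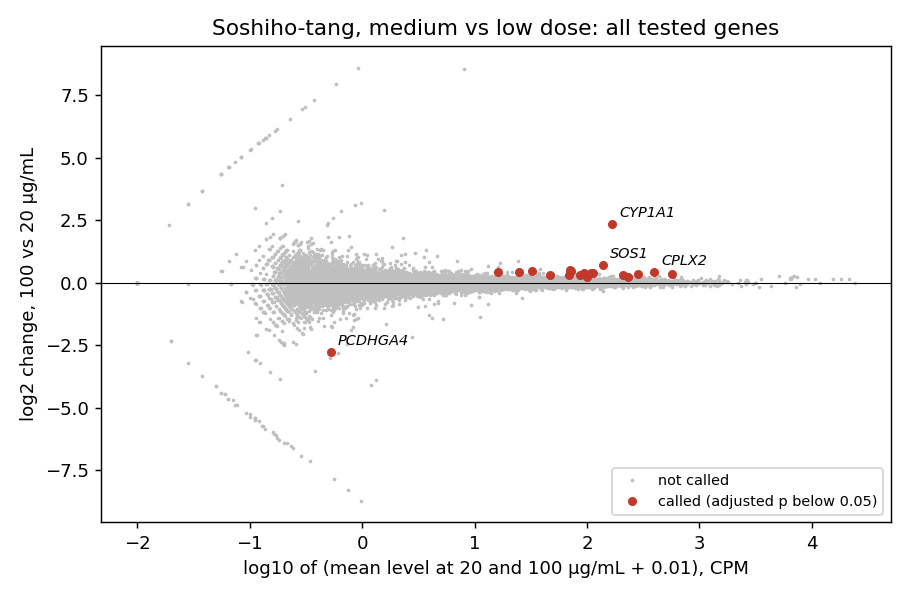
Log2 change of each tested gene between 100 and 20 µg/mL (vertical axis) against the log10 of its mean level in CPM plus 0.01 (horizontal axis), with called genes in red and the rest in grey. CYP1A1 at a log2 change of 2.32 and SOS1 at 0.71 stand above the other red points, most of which lie between 0.2 and 0.5, and PCDHGA4, at a low level, is the only red point below 0.

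CYP1A1 (ENSG00000140465, chr15:74719542-74725610 on GRCh38, GENCODE 29, minus strand, protein-coding) had the largest rise. Its level was 8.09, 7.51 and 8.26 CPM in the vehicle libraries, 59.7 and 51.0 CPM at 20 µg/mL, 279 and 276 CPM at 100 µg/mL and 920 and 927 CPM at 500 µg/mL. No 2 of these groups overlapped, and the level was higher at each dose than at the one before. Medium against low was 5.01-fold, a log2 change of 2.32 ± 0.071 (SE, edgeR, adjusted p = 1.9e-27). The low dose already differed from vehicle by 2.80 on the log2 scale (adjusted p = 3.09e-29 in edgeR's quasi-likelihood test), and by 2.81 without vehicle replicate 1. The high dose was 1.73 above the medium dose on the log2 scale (adjusted p = 2.26e-23, edgeR).

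Apart from NQO1, SLC7A5, NFE2L2 and TIPARP, the other AhR targets lay under 10 CPM. Of 12 tested members of a 13-gene list, CYP1A1 and NQO1 passed the test and none fell, while 0.118% of all genes tested passed. All 12 had a positive change, against 49.1% of all genes tested, and the median log2 change was 0.43. CYP1A2, the sister monooxygenase of CYP1A1, was at 0.109 and 0.203 CPM at 20 µg/mL and at 0.849 and 0.728 CPM at 100 µg/mL, after 0.0368, 0.0821 and 0.0454 CPM in vehicle. ALDH3A1, an aldehyde dehydrogenase, was at 1.13 and 1.70 CPM at the low dose and 3.21 and 2.80 CPM at the medium dose. Both genes had separate groups but missed the threshold, with log2 changes of 2.32 (adjusted p = 0.209) and 1.09 (adjusted p = 0.0953) in edgeR's test. With only the 4 libraries fitted, CYP1A2 was called (adjusted p = 0.0262, edgeR). In that fit 5 of 11 tested members of the list passed, where 274 of 15451 genes tested did. LRRC25, a leucine-rich repeat membrane protein that is on the list from earlier results of these data and is no textbook target, was at 1.02 and 0.972 CPM and then 1.66 and 2.33 CPM, a log2 change of 1.00 (adjusted p = 0.248).

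AHRR was at 0.876 and 1.09 CPM at the low dose and 1.26 and 1.57 CPM at the medium dose. Its log2 change of 0.52 missed the threshold (adjusted p = 0.964), and it then rose by 2.12 from the medium to the high dose (adjusted p = 2.05e-07, edgeR). CYP1B1, a monooxygenase expressed mostly outside the liver, stayed under 0.3 CPM in every vehicle, low and medium library. TIPARP, a mono-ADP-ribosyltransferase induced by AhR, had a log2 change of 0.05 (adjusted p = 1) with overlapping groups. The receptor's own genes were flat over the step: AHR averaged 40.9 CPM at the low and 41.1 CPM at the medium dose, and ARNT 32.0 and 31.9 CPM. None of the 7 genes of the receptor complex, a list that also holds AHRR, PTGES3 and HSP90AB1, was called.

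SOS1 (ENSG00000115904, chr2:38981396-39124345, minus strand), a guanine nucleotide exchange factor that loads RAS proteins with GTP, was called against vehicle at the medium dose and not at the low dose. It was at 121, 101 and 100 CPM in vehicle, 105 and 106 CPM at 20 µg/mL, 176 and 170 CPM at 100 µg/mL and 470 and 460 CPM at 500 µg/mL. The low-dose libraries lay inside the vehicle range, whose top is vehicle replicate 1, and above vehicle replicates 2 and 3, whereas both medium libraries lay above all 3. Medium against low was 1.64-fold, a log2 change of 0.71 ± 0.076 (SE, adjusted p = 5.95e-08, edgeR), and low against vehicle was -0.03 (adjusted p = 0.839), or 0.06 without vehicle replicate 1 (adjusted p = 0.696). The next step to the high dose was 1.43 (adjusted p = 2e-18). Its paralog SOS2 had a log2 change of -0.03 over the same step. Of the 9 tested genes on a list of RAS exchange factors and regulators SOS1 alone was called, with a list median of -0.02, and NRAS, HRAS, GRB2, NF1 and RASA1 were among those that did not pass. SOS1-IT1, a transcript inside an intron of SOS1, was at 1.68 and 1.70 CPM and then 2.18 and 2.77 CPM (log2 change 0.55, adjusted p = 0.844), and reads of an unspliced host transcript could be counted to it.

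Stretches of the RefSeq promoter windows (GRCh38.p14) show the letters upstream of the RefSeq starts of genes whose levels moved together here. CYP1A1, SOS1 and GCLC are shown for GCGTG, the AhR core, TXNRD1 for TGACNNNGC and OSGIN1 for TGANTCAGC, both forms of the antioxidant response element. Each stretch is 120 bases, 5′ to 3′ on the gene's strand, and capitals mark the motif named for that gene, on either strand. Positions are counted from the RefSeq start, with -1 the base just before it. The regions are chr15:74725529-74725648 for CYP1A1, chr2:39124869-39124988 for SOS1, chr6:53545212-53545331 for GCLC, chr12:104215625-104215744 for TXNRD1 and chr16:83953086-83953205 for OSGIN1.
CYP1A1: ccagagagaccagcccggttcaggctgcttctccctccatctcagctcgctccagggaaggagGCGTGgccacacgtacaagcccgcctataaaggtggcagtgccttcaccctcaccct
SOS1: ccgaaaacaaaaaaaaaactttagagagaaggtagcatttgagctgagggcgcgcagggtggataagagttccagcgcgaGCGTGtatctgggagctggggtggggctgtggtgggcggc
GCLC: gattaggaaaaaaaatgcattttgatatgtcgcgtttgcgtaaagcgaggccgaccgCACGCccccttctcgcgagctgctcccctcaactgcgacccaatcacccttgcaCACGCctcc
TXNRD1: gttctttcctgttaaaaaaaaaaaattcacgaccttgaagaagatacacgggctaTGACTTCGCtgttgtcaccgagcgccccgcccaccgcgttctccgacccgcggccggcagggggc
OSGIN1: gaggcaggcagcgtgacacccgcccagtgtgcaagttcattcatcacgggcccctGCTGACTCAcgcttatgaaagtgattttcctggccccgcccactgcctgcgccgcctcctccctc
In CYP1A1 the match began at -57 and in SOS1 at -40. GCLC had matches on the other strand, at -173 and -119 in this stretch. The antioxidant forms began at -99 in both TXNRD1 and OSGIN1. Promoter windows, from 250 bases before to 50 bases after the start, were found for 17 of the 20 called genes, and AKR1B10, ABCC3 and ZNF703 were not matched. GCGTG was present in windows of 10 of the 17 genes (CYP1A1, GCLC, MRAS, NQO1, OSGIN1, RGMB, SOS1, SRXN1, TSKU and TXNRD1), against 40.6% of all 27305 genes and 36.5% of all windows, so a match to 5 letters is common. TGACNNNGC was in windows of TXNRD1 alone (16.1% of all genes) and TGANTCAGC in that of OSGIN1 alone (1.66% of all genes). Motifs were searched on both strands, and a match is a description of letters and not of binding.

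NRF2 targets were the largest listed group among the genes that rose. Of 27 tested members of a 28-gene list, 9 rose between 20 and 100 µg/mL and none fell, against 0.112% of all genes tested that rose. The median log2 change of the list was 0.20, 26 of 27 members had a positive change, and 21 had both medium libraries above both low libraries, an order that 21.4% of all genes tested showed. The 9 were the peroxiredoxin repair enzyme SRXN1, the aldo-keto reductases AKR1B10 and AKR1C2, OSGIN1, NQO1, SQSTM1, ABCC3, TXNRD1 and GCLC. All 9 rose again from the medium to the high dose. The count depended on the scaling and on single libraries: with library size alone 4 members were called, and leaving out any 1 of the 4 libraries left 2 to 3. With only the 4 medium and low libraries fitted it was 13 of 27, where 274 of 15451 genes tested were called.

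SRXN1 (ENSG00000271303, chr20:646615-653370) was at 80.1, 84.5 and 85.9 CPM in vehicle, 96.0 and 92.5 CPM at 20 µg/mL, 122 and 127 CPM at 100 µg/mL and 164 and 163 CPM at 500 µg/mL. The 4 groups did not overlap and each dose lay above the one before. The medium dose was 1.32-fold the low dose, a log2 change of 0.40 ± 0.051 (SE, adjusted p = 4.72e-06, edgeR). AKR1B10 (ENSG00000198074, chr7:134527592-134541408), which reduces retinal and other aldehydes, was at 38.7, 42.8 and 41.8 CPM in vehicle, 58.1 and 58.4 CPM at the low, 84.0 and 82.8 CPM at the medium and 141 and 142 CPM at the high dose. Its groups were also fully separate, with a medium to low ratio of 1.43 (log2 change 0.52 ± 0.067, adjusted p = 4.72e-06). AKR1C2, a hydroxysteroid dehydrogenase, was at 203, 203 and 198 CPM in vehicle, 253 and 247 CPM at the low and 330 and 309 CPM at the medium dose. It was 1.28-fold higher at the medium dose (adjusted p = 0.0323, edgeR). Its related neighbours AKR1C1 and AKR1C3 had log2 changes of 0.10 and 0.01 and were not called. Aldo-keto reductase copies share sequence, so the division of reads between them is uncertain.

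OSGIN1, a growth inhibitor induced by oxidative stress, was at 59.5 and 59.6 CPM at 20 µg/mL and 85.0 and 81.8 CPM at 100 µg/mL, with 51.7, 52.5 and 54.6 CPM in vehicle. This 1.40-fold step was significant (adjusted p = 0.00218, edgeR). NQO1, the quinone reductase shared by the NRF2 and AhR lists, was at 355, 368 and 374 CPM in vehicle, 509 and 497 CPM at the low dose, 633 and 631 CPM at the medium dose and 910 and 935 CPM at the high dose. Every dose lay above the one before, and the step from low to medium was 1.26-fold (adjusted p = 0.00244). SQSTM1, the autophagy receptor p62 that also binds KEAP1, was at 195, 218 and 215 CPM in vehicle, 217 and 209 CPM at the low and 252 and 252 CPM at the medium dose. Its low-dose libraries lay within the vehicle range, whose low end is vehicle replicate 1; without that library the one at 209 CPM lay below the range. The medium libraries lay above all vehicle libraries, and the step was 1.18-fold (adjusted p = 0.00897).

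Glutathione and thioredoxin enzymes followed. TXNRD1, which keeps thioredoxin reduced, was at 152, 159 and 153 CPM in vehicle, 189 and 179 CPM at the low and 238 and 222 CPM at the medium dose, with no overlap between these groups (log2 change 0.32, adjusted p = 0.0313). GCLC, the catalytic subunit of the first and rate-limiting enzyme of glutathione synthesis, was at 83.1, 77.5 and 74.6 CPM in vehicle, 78.2 and 75.4 CPM at the low and 93.0 and 96.7 CPM at the medium dose. Low dose and vehicle overlapped for GCLC, and the step was 1.23-fold (adjusted p = 0.0410). ABCC3, which exports bile acids and conjugates across the basolateral membrane, was at 57.8, 59.8 and 60.6 CPM in vehicle, 61.8 and 60.4 CPM at the low and 75.1 and 77.9 CPM at the medium dose (log2 change 0.32, adjusted p = 0.0148). Its low-dose libraries lay close to vehicle and its medium libraries clear of both.

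Other members of the list missed the threshold in edgeR's test. GSR, glutathione reductase, went from 191 and 190 to 224 and 219 CPM, a log2 change of 0.22 (adjusted p = 0.0555). GCLM, the regulatory subunit that partners GCLC, went from 34.3 and 35.9 to 46.0 and 46.6 CPM, a log2 change of 0.40 (adjusted p = 0.0750). HMOX1, haem oxygenase, was at 61.8 and 57.9 and then 71.1 and 70.6 CPM (log2 change 0.24, adjusted p = 0.259). In each of these 3 genes the medium libraries lay above the low ones. Enzymes of the pentose phosphate pathway had smaller changes, with log2 values of 0.17 for TKT, 0.11 for TALDO1 and 0.03 for PGD, and SLC7A11, the cystine importer, had 0.05. TRIM16L at -0.18 was the single member with a negative change.

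**Figure D2:**
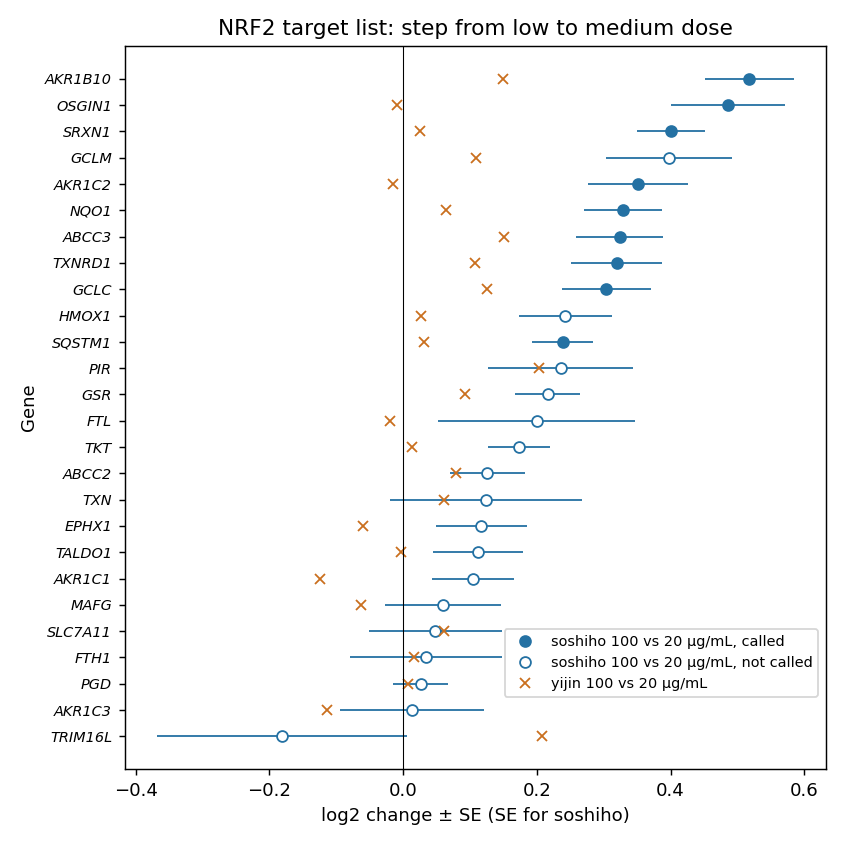
Log2 change from 20 to 100 µg/mL (horizontal axis) for 26 of the 27 tested members of the NRF2 list (vertical axis): blue circles with standard errors for Soshiho-tang, filled where called, and orange crosses for Yijin-tang. The soshiho values run from -0.18 for TRIM16L to 0.52 for AKR1B10 with 9 filled points, and the yijin crosses run from -0.12 for AKR1C1 to 0.21 for TRIM16L.

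The remaining 8 genes that rose stand on none of the pathway lists. CPLX2, a complexin that binds the SNARE complex in exocytosis, was at 324, 337 and 330 CPM in vehicle, 335 and 338 CPM at 20 µg/mL, 448 and 459 CPM at 100 µg/mL and 513 and 518 CPM at 500 µg/mL. MRAS, a small GTPase of the RAS family, was at 24.6, 26.5 and 25.3 CPM, then 27.6 and 26.7, 36.2 and 38, and 42.4 and 40 CPM in the same order. In both genes the low dose lay close to vehicle and the medium dose above both, with steps of 1.35-fold (adjusted p = 3.71e-05, edgeR) and 1.37-fold (adjusted p = 0.000329).

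TSKU (ENSG00000182704, chr11:76782251-76798154), a secreted leucine-rich repeat proteoglycan made by liver, was at 78.2, 87.4 and 84.6 CPM in vehicle, 84.2 and 77.7 CPM at the low dose, 107 and 104 CPM at the medium dose and 104 and 108 CPM at the high dose. The medium and high groups overlapped. The low group overlapped vehicle only through vehicle replicate 1 and lay below the other vehicle libraries, and low against vehicle was -0.04 on the log2 scale, or -0.09 without replicate 1 (adjusted p = 0.701 and 0.373). The step from low to medium was a log2 change of 0.38 (adjusted p = 0.000329, edgeR) and the step from medium to high had a log2 change of 0.01 (adjusted p = 0.994). CPLX2 and MRAS likewise missed the threshold from medium to high, with log2 changes of 0.19 (adjusted p = 0.0903) and 0.15 (adjusted p = 0.348). The other 16 of the 19 genes rose there too.

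NEDD9, a scaffold protein of focal adhesions, was at 117, 109 and 115 CPM in vehicle, 101 and 97.1 CPM at the low, 126 and 131 CPM at the medium and 199 and 200 CPM at the high dose. It was the gene of the 19 that was called lower at the low dose than in vehicle, by a log2 change of -0.20 (adjusted p = 0.0138, edgeR), which became -0.19 (adjusted p = 0.0499) without vehicle replicate 1 and -0.08 (adjusted p = 0.299) with library size alone. Medium against low was a log2 change of 0.37 (adjusted p = 0.000605). RGMB, a co-receptor for bone morphogenetic proteins, was at 9.93, 9.07 and 9.07 CPM in vehicle and 13.8 CPM in both low-dose libraries, then 18.8 and 18.5, and 35.4 and 35.7 CPM. It rose at every dose, by 1.35-fold from low to medium (adjusted p = 0.0323).

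CAVIN2, a coat protein of caveolae, was at 21.2 and 21.6 CPM at the low and 27.7 and 29 CPM at the medium dose (1.33-fold, adjusted p = 0.0111), with 17.9 to 19.6 CPM in vehicle. ZNF703, a transcriptional cofactor, was at 41.6 and 41.4 and then 51.2 and 52.1 CPM (1.24-fold, adjusted p = 0.0410), with 32.1 to 36.9 CPM in vehicle. FAM171A1, a membrane protein, was at 93.7 and 91.7 and then 107 and 109 CPM (adjusted p = 0.0334 in edgeR's test), with 97.1 to 99.3 CPM in vehicle. The low dose of FAM171A1 lay under the vehicle range and the medium dose over it, whereas CAVIN2 and ZNF703 were above vehicle at both doses.

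**Figure D3:**
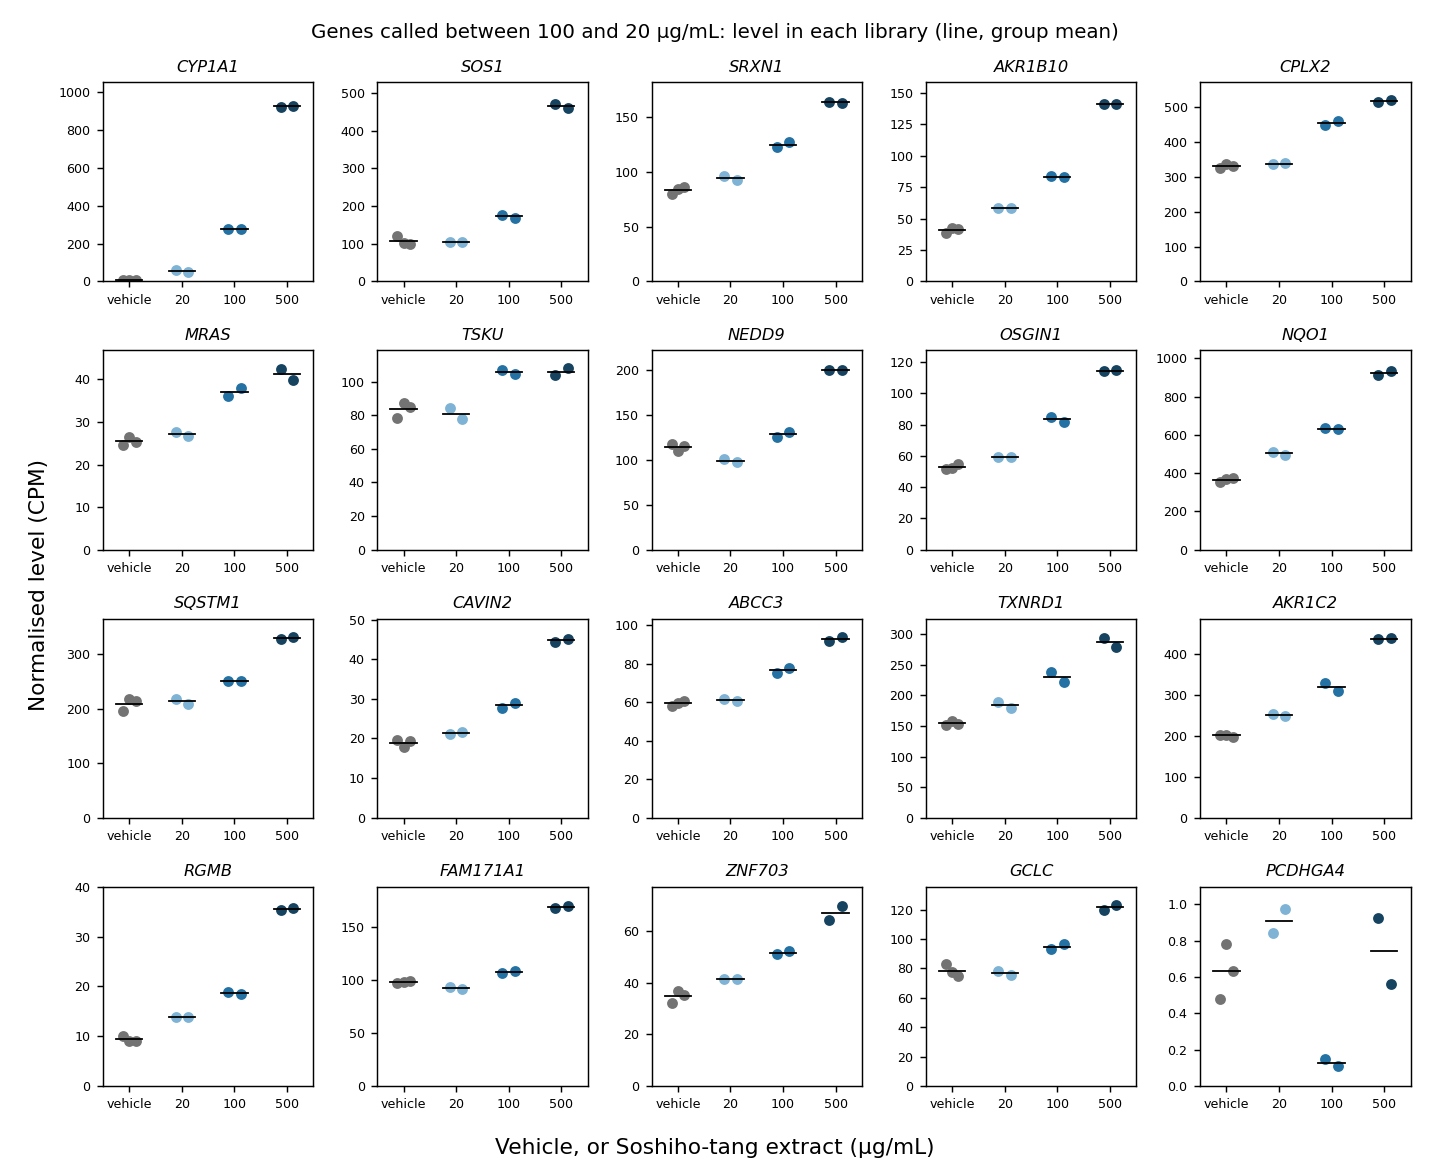
Level in CPM (vertical axis, from 0) of the 20 called genes in each vehicle library and in each soshiho library at 20, 100 and 500 µg/mL (horizontal axis), with points for libraries and lines for group means. In 19 panels both points at 100 µg/mL lie above both at 20 µg/mL; CYP1A1 runs from about 8 to 927 CPM, TSKU is level from 100 to 500 µg/mL, and PCDHGA4 has its lowest points at 100 µg/mL.

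The only gene called lower was PCDHGA4 (chr5:141355025-141512979), of the protocadherin gamma cluster of cell adhesion molecules. Its expected counts were 13, 19 and 13.6 in vehicle, 22.8 and 23.8 at 20 µg/mL, 4 and 3 at 100 µg/mL and 21.5 and 14.5 at 500 µg/mL. The medium libraries alone were low, and the high dose was above the medium dose again by a log2 change of 2.49 (adjusted p = 0.0168, edgeR). The fall from low to medium was -2.77 on the log2 scale (adjusted p = 0.0496), on few counts, and it passed in 6 of the 13 alternatives. Genes of the cluster share their last exons, so how reads were split between them is uncertain.

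Across 31 pathway lists, which were chosen with earlier results of these data known, 26 had no member called between the doses. Besides the AhR, NRF2 and RAS lists, ABCC3 was called among 12 drug and bile transporters and SQSTM1 among 23 lysosome and autophagy genes. Of the 20 called genes 11 are on a list and 9 on none. Cholesterol synthesis had 0 of 25 called, a median log2 change of -0.08, 2 positive values and 17 members with both medium libraries below both low libraries, which 21.5% of all genes tested showed. HMGCS1, which makes the precursor of mevalonate, was at -0.09 (adjusted p = 1). Hepatocyte genes had 0 of 26 called with a median of -0.06, and ALB, albumin, was at 7624 and 7794 CPM at the low and 6872 and 6864 CPM at the medium dose (log2 change -0.17, adjusted p = 0.813). Its medium libraries lay below both low-dose libraries and within the vehicle range of 6699 to 7292 CPM, though above vehicle replicates 2 and 3, at 6699 and 6795 CPM. In a bulk sample, fewer cells of a type and less RNA per cell cannot be told apart.

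At the next step other lists had members that passed. Mitosis had 0 of 28 called between low and medium, with a median log2 change of 0.04, whereas 13 of the 28 were lower from medium to high (1.47% of all genes tested were), with a median of -0.27. Metal response had a median of -0.08 over 9 genes at the first step and -0.60 at the second, with none called at either; MT1X, a metallothionein, had -0.22 (adjusted p = 1) and -0.60 (adjusted p = 0.102). ATF4 targets had 0 of 26 called at the first step and 9 higher at the second, where 1.75% of all genes tested were higher. HAMP, the iron hormone hepcidin, was at 27.3 and 24.1 CPM at the low, 32.0 and 31.9 CPM at the medium and 8.97 and 11.4 CPM at the high dose. IGFBP1, a binding protein for insulin-like growth factors, was at 57.0 and 50.2, 48.3 and 44.0, and 177 and 164 CPM. Neither passed between low and medium (adjusted p = 0.976 and 1), and from medium to high HAMP fell by 1.65 and IGFBP1 rose by 1.89 on the log2 scale (adjusted p = 7.81e-07 and 8.9e-05, edgeR). These 2 steps share the medium libraries.

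**Figure D4:**
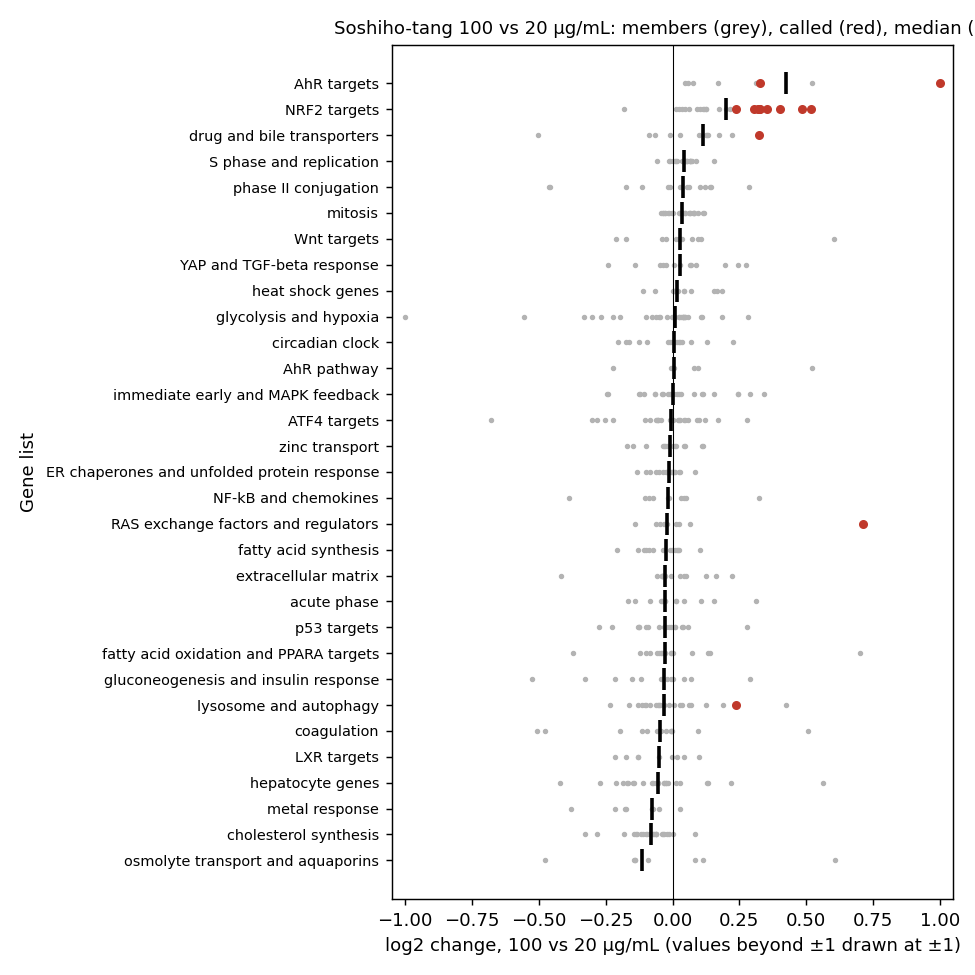
Log2 change from 20 to 100 µg/mL (horizontal axis, values beyond 1 in size drawn at 1) of the tested members of 31 gene lists (vertical axis), grey where not called, red where called, with a bar at each median. The AhR and NRF2 lists have the highest medians, 0.43 and 0.20, and hold 10 of the 11 red genes that are on a list, SOS1 being the other; cholesterol synthesis lies at -0.08.

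The next step, from 100 to 500 µg/mL, called 544 genes (3.21%), 296 higher and 248 lower, and 16 of the 19 were among the higher ones (1.75% of genes tested). Over the 19 genes the median log2 change was 0.45 at this step and 0.38 at the first. High dose against vehicle shares no library with medium against low. There 21.8% of all genes were called, 10.6% higher, and all 19 were among the higher ones, with the lowest log2 change 0.35 for TSKU, and the count was also 19 without vehicle replicate 1 and with library size alone.

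Yijin-tang gave the same dose step within the same sample code, with 3 libraries at each dose. Between 100 and 20 µg/mL it called 1 gene (0.00591%), CYP1A1, with 860 genes at an unadjusted p of 0.05. DESeq2 called 8, 3 higher and 5 lower. Yijin levels of CYP1A1 were 7.31, 8.15 and 7.09 CPM at 20 µg/mL and 14.2, 13.1 and 13 CPM at 100 µg/mL. The groups did not overlap, the log2 change was 0.84 ± 0.082 (SE, adjusted p = 1.08e-08, edgeR), and all 6 libraries were below the low-dose soshiho libraries. Over the 19 genes the median log2 change in yijin was 0.07, with 14 positive. Over all genes tested the yijin median was 0.00, with 50.7% positive. The 19 were picked for their rise in soshiho, so a smaller median in yijin follows in part from that choice.

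The difference between the 2 steps, soshiho minus yijin, was called for 4 genes (0.0236%). It was 1.49 for CYP1A1 (95% interval 1.27 to 1.71, adjusted p = 6.99e-13, edgeR), 0.64 for SOS1 (0.44 to 0.84, adjusted p = 0.00063), 0.40 for TSKU (0.24 to 0.56, adjusted p = 0.0319) and 0.38 for SRXN1 (0.24 to 0.51, adjusted p = 0.00637). In yijin SOS1 was at 90.0, 87.8 and 80.9 CPM at 20 µg/mL and 89.3, 96.8 and 85.4 CPM at 100 µg/mL, with overlapping groups. SRXN1 and TSKU overlapped in yijin as well. For the other 16 called genes the adjusted p of the difference was 0.142 or more. AKR1B10 had a difference of 0.37 (0.19 to 0.54) and NQO1 of 0.26 (0.11 to 0.42), so those steps are not shown to be alike.

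**Figure D5:**
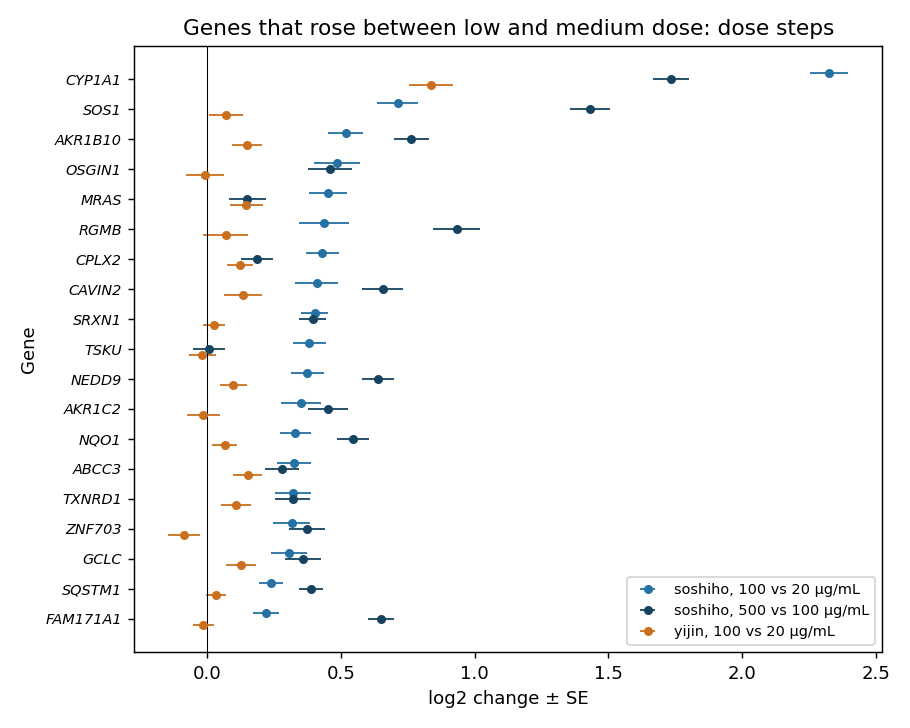
Log2 change with its standard error (horizontal axis) for the 19 genes that rose between low and medium dose (vertical axis), for soshiho 100 against 20 µg/mL, soshiho 500 against 100 µg/mL and yijin 100 against 20 µg/mL. CYP1A1 has the largest value in each series, at 2.32, 1.73 and 0.84, and for TSKU both the second soshiho step (0.01) and the yijin step (-0.02) lie near 0.

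Set against vehicle, both soshiho doses differed in many more genes than they did from each other. The low dose differed in 2019 genes (11.9%), 927 higher (5.48%) and 1092 lower (6.45%). The medium dose differed in 1723 (10.2%), 801 higher (4.73%) and 922 lower (5.45%). Without vehicle replicate 1 the counts were 1482 and 1214. Low-dose yijin differed from the same vehicle libraries in 2578 genes (15.2%), and without replicate 1 in 625 higher and 953 lower, while low-dose soshiho and low-dose yijin, which share a code, differed in 4 (0.0236%): CYP1A1 higher in soshiho by 2.88 on the log2 scale, AKR1B10 by 0.32, CPLX2 by 0.30, and MYOF, a membrane repair protein of the ferlin family. These vehicle comparisons share the vehicle libraries. With library size alone the median log2 change of all genes against vehicle moved from 0.01 to 0.13 at the low dose and from 0.00 to 0.10 at the medium dose, and the share of calls that were higher moved from 45.9% to 91.2% and from 46.5% to 87.0%.

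All 19 genes were called higher at the medium dose than in vehicle, against 4.73% of all genes tested. They were picked on these same medium and low libraries, so their counts against vehicle are no separate support. Without vehicle replicate 1, 17 were called, and NEDD9 (adjusted p = 0.0560, edgeR) and FAM171A1 (adjusted p = 0.120) missed the threshold. At the low dose 8 of the 19 were already called higher than vehicle (6 without vehicle replicate 1, 12 with library size alone): AKR1B10, AKR1C2, CYP1A1, NQO1, RGMB, SRXN1, TXNRD1 and ZNF703. SOS1, CPLX2, MRAS, TSKU, SQSTM1, ABCC3, GCLC, OSGIN1, CAVIN2 and FAM171A1 did not pass at the low dose. With library size alone MRAS, SQSTM1, OSGIN1 and CAVIN2 passed there too. Without vehicle replicate 1, SRXN1 and ZNF703 lost their calls. On the NRF2 list 11 of 27 were higher than vehicle at the low and 20 at the medium dose (9 and 16 without vehicle replicate 1). On the AhR list 4 of 12 were higher at the low and 7 at the medium dose (2 and 5 without it). At the low dose 1 member of each list was lower than vehicle. Of all genes tested, 5.48% were higher at the low and 4.73% at the medium dose (580 and 482 of 16916 genes without vehicle replicate 1). Low-dose yijin had 6 NRF2 and 2 AhR members higher than the same vehicle (4 and 1 without vehicle replicate 1), and 1 member of each list lower. Of all 16924 genes tested, 1203 were higher in low-dose yijin (625 of 16916 without vehicle replicate 1). Since code, extract and a possible difference in solvent cannot be told apart against vehicle, these counts describe them together.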

How the data were processed

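RNA of HepG2 cells was sequenced as directional paired libraries, per the labels' protocols. The authors deposited 1 table of expected counts per gene for 60 libraries. Per the submitters' processing notes, it was made with FastQC 0.11.9, Trim Galore 0.6.5, STAR 2.7.3a and RSEM 1.3.3 on GRCh38; the annotation release is not given in the sources used here. Of the values, 10.4% were not whole, and all were rounded. Every one of the 60 columns was mapped by its sample code.

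The 54 libraries of the 19 groups with at least 2 libraries were fitted together in edgeR 4.0.16 (R 4.3.3), with TMM scaling, filterByExpr and the quasi-likelihood test. Of 60675 identifiers 16924 were tested, and p-values were adjusted by Benjamini-Hochberg over all of them, with calls at 0.05. Standard errors come from the log2 change and its F value. Levels are TMM-scaled CPM. Scaling factors of the 7 libraries were 0.9001 to 1.0119. The fit was tested on simulated data, with 50 genes changed at each of 4 folds between medium and low dose. It called 30% of those changed 1.25-fold, 48% at 1.5-fold, 78% at 2-fold and 92% at 4-fold. Of its calls 4.62% were false. Many changes under 1.5-fold would thus be missed. Symbols came from a name table (14980 tested genes had one) and coordinates from GENCODE 29 (16812 found). Gene by gene totals limit precision at low counts, and intervals cover the spread between libraries only.

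The members and gene lists were chosen with earlier results of these data known. Genes were named by rule: the 12 largest called changes per direction with at least 5 CPM, a fixed group of AhR, stress and liver genes, called members of lists, genes called in the difference of steps and genes with opposite steps. SQSTM1, ABCC3, TXNRD1, FAM171A1, ZNF703, GCLC and MYOF, and other genes named outside the rule as list members, were named after their values were seen. Alternatives were other scalings, no filter, DESeq2 1.42.0, smaller sets of libraries, a replicate block, leaving out single libraries and a fold minimum of 1.5. Values of some list members are not reported here.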

Additional observations from a re-analysis of the deposited data

Results flagged for a closer look

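Over the step from 20 to 100 µg/mL, 4 genes differed between Soshiho-tang and Yijin-tang by the test of the difference itself (edgeR, soshiho change minus yijin change on the log2 scale). CYP1A1, the aromatic hydrocarbon monooxygenase, had a difference of 1.49: soshiho 2.32, yijin 0.84. SOS1, the RAS exchange factor, had 0.64: soshiho 0.71, yijin 0.07. TSKU, a secreted liver proteoglycan, had 0.40: soshiho 0.38, yijin -0.02. SRXN1, the peroxiredoxin repair enzyme, had 0.38: soshiho 0.40, yijin 0.02. In each of the 4 genes, which were called on these same libraries, both soshiho libraries at 100 µg/mL lay above both at 20 µg/mL. That order was shown by 21.4% of all genes tested. Leaving out single libraries left 2 to 5 genes called in this difference.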

How the results depend on the processing

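All 20 called genes kept their direction in every alternative run, and 14 of them lost the call in at least 1. Genes called between medium and low numbered 20 with size factors of the DESeq2 type, 11 with library size alone (all among the 20), 124 with no filter on low counts (59.7% higher, against 95%, and 18 of the 20 among them), 32 with DESeq2, 274 with only the 4 libraries fitted (66.4% higher), 30 with only vehicle and soshiho libraries (83.3% higher, 17 of the 20 among them), 3 at 1.5-fold or more, and 7 to 9 without single replicates. The cause was not tested, except that the fits without single libraries have fewer samples.

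The replicate block was tried on the libraries of the soshiho and yijin code alone: 58 genes were called without it and 67 with it, 19 of the 20 among them each time. The labels do not say that a number marks a shared culture. The difference between replicates 2 and 3 was correlated between doses over 10723 genes. The correlation was 0.05 for medium and low, 0.20 for high and medium and 0.04 for high and low. With a single such difference per dose, these values cannot tell whether the numbers pair the samples, and the main fit did not pair them. Without and with the block, high against medium called 1002 and 1040, the difference of steps 14 and 12, yijin 13 (3 higher, 10 lower) and 10 (3 higher, 7 lower), and low soshiho against low yijin 18 and 16.

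The difference of steps called 2 with library size alone, 112 with no filter, 7 with DESeq2, and 2 to 5 without single replicates. Yijin medium against low called 89 with no filter (43 higher, 46 lower) and 8 with DESeq2 (3 higher, 5 lower). Low soshiho against low yijin called 2, 87 and 7 under these 3 settings, and 1 to 3 without single replicates. High against medium called 241 to 292 without single replicates. With library size alone medium against vehicle called 2627 and low against vehicle 3575, and without single replicates they called 595 to 1449 and 606 to 1680. Genes called between medium and low were also looked up between the high dose and vehicle in the same fit. There 11 of 11 (library size alone) and 82 of 124 (no filter) were called, counted in either direction. With library size alone 3192 of 16924 genes tested were higher there and 930 lower. The share over all genes with no filter is not reported here, and in the main fit it was 21.8%.

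In an alternative chosen after seeing the data, 2 libraries of other extracts that lay farthest from their replicates were left out. Medium against low then called 44, of which 38 were also called in high against vehicle, counted in either direction. The share of all genes called in high against vehicle in this fit is not reported here. The difference of steps called 9, yijin 3 (1 higher, 2 lower), high against medium 776, medium against vehicle 2434 and low against vehicle 2697.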

Other observations

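These genes were not called between 20 and 100 µg/mL and were picked after their values were seen. CSK, a kinase that inhibits SRC family kinases, averaged 84.7 CPM at the low and 99.1 CPM at the medium dose (log2 change 0.23, adjusted p = 0.0559, edgeR). MBL2, a lectin of complement secreted by liver, averaged 18.6 and 24.8 CPM (0.42, adjusted p = 0.0559). AQP3, a channel for water and glycerol, averaged 3.29 and 5.02 CPM (0.61, adjusted p = 0.0695). MAT1A, which makes S-adenosylmethionine in hepatocytes, averaged 147 and 170 CPM (0.21, adjusted p = 0.105), and ASNS, asparagine synthetase, 36.9 and 31.0 CPM (-0.25, adjusted p = 0.105).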
